A study of Saccharomyces cerevisiae with 54 samples.

Results

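The genes with which budding yeast takes up and splits sucrose and maltose were followed through the peak lists of a chromatin immunoprecipitation sequencing (ChIP-seq) series on the histone deacetylase Hda1. They were chosen by name: the invertase SUC2, the maltases MAL12 and MAL32, the maltose transporters MAL11 and MAL31, the MAL activators MAL13 and MAL33, and the isomaltase IMA1. All 8 were found among the 6002 nuclear protein-coding genes of the RefSeq table for the R64 assembly. Acetylated H3 (H3ac) and acetylated H4 (H4ac) were mapped in hda1∆, tup1∆ and wild-type cells. The myc tag was mapped in cells with an Hda1 that carries 18 myc repeats and lacks its Arb2 domain (Hda1-myc ∆Arb2), in cells with full-length Hda1-myc, and in untagged cells. All strains were grown at 30 °C in rich medium with 2% glucose, so no cells grown on sucrose or maltose were measured. Each strain and antibody had 2 libraries per set. By their labels, some libraries carried fission yeast chromatin as a spike-in (H4ac and myc) and others did not (H3ac, H4ac and myc), whereas the study's methods state a spike-in for all ChIP-seq but that of H3ac. The sets were kept apart by label. Their peak lists also differ in threshold, since the largest q of a listed peak was 0.0474 with spike-in and 0.00987 without, so coverage was compared between strains within a set only.

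Sucrose is split outside the cell by invertase, the product of SUC2. Maltose uptake and breakdown are encoded by MAL loci near chromosome ends, each holding a proton-coupled transporter, an intracellular maltase and a zinc-cluster activator that switches on the other genes when maltose is present. While glucose is plentiful these genes are held down by glucose repression, in which the DNA-binding repressor Mig1 brings the corepressor Tup1-Cyc8 to promoters, and Tup1 has been linked to histone deacetylases that include Hda1. Several MAL genes have close relatives elsewhere: MAL12 with MAL32, MAL11 with MAL31, MAL13 with MAL33, and IMA1 with IMA2 to IMA5. MAL12 and MAL32 are nearly identical, so reads from them could have been assigned to either copy. How reads with several possible positions were placed is not given in the sources used here, and peaks over these copies are uncertain for that reason.

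The genes form 3 loci. SUC2 (YIL162W) lies on chromosome IX. IMA1 (YGR287C), MAL13 (YGR288W), MAL11 (YGR289C) and MAL12 (YGR292W) follow each other on chromosome VII, and MAL33 (YBR297W), MAL31 (YBR298C) and MAL32 (YBR299W) on chromosome II. Their starts face each other in divergent pairs. IMA1 and MAL13 are 1301 bp apart, and MAL11 and MAL12 785 bp. MAL31 and MAL32 are 875 bp apart, a stretch that holds the small gene YBR298C-A. MAL33 faces the phosphate transporter gene PHO89 across 2000 bp that hold the small gene TYC1. The SUC2 start lies 132 bp from YIL163C. The upstream windows of divergent neighbours share bases, except those of MAL33 and PHO89, which only meet. A gain counted at 2 such genes can be the same peak.

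For each gene and library, called peaks were laid over the coding region and over the upstream window, the 1000 bp before the start codon. Below, "coverage" means the share of such a region under peaks, and the values of a strain are given for library 1 and then library 2. A gene was called as gaining or losing when each library of the first strain exceeded, or fell short of, each library of the second by 10 percentage points or more. With 2 libraries against 2, an exact permutation test cannot give a two-sided p below 0.33, and every call below had that p, so each count is read against the share of all genes called by the same rule. Both mutants were compared with the same wild-type libraries.

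Over the 8 coding regions, the 2 libraries of a strain differed by at most 8.10 points for H3ac, against up to 35.4 points for H4ac with spike-in. In the upstream windows the largest differences were 17.3 points for H3ac and 56.2 points for H4ac with spike-in. Over all coding regions the mean difference was 5.05 points for H3ac, and for H4ac 6.03 points with spike-in and 3.61 points without. The 18 acetylation libraries covered between 2681703 and 4192994 bp of the nuclear chromosomes, and the lists hold no read counts, so sequencing depth is unknown. For H3ac the wild-type lists covered least, 2720225 and 2681703 bp. The hda1∆ lists covered 3131883 and 3152437 bp and the tup1∆ lists 3131542 and 2874686 bp, so H3ac gains compare longer lists with shorter ones. HDA1 itself held no peak in its coding region in any of the 6 hda1∆ libraries. TUP1 held none in the 6 tup1∆ libraries, but none in wild-type H3ac libraries either.

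In wild-type cells H3ac peaks were almost absent from these genes. None of the 8 upstream windows held an H3ac peak in either wild-type library, while 61.5% of all genes did in both. Among coding regions, the 2 maltase genes held H3ac peaks in both libraries and the other 6 held none, while 56.9% of all genes held one in both. In hda1∆ cells 6 of the 8 coding regions gained H3ac coverage (SUC2, MAL11, MAL12, MAL13, MAL32 and IMA1), where 11.3% of all genes did. In tup1∆ cells 5 of 8 gained (SUC2, MAL11, MAL13, MAL32 and MAL33), where 10.3% of all genes did. No member was called as losing coding H3ac coverage, where 2.65% of all genes were in hda1∆ and 4.97% in tup1∆ cells. Only MAL12 and MAL32 could have been, since the other 6 held no wild-type H3ac peak to lose. The median change over the 8 coding regions was 23.4 points in hda1∆ cells and 22.6 points in tup1∆ cells, against a median of 0 over all genes in each comparison.

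**Figure D1:**
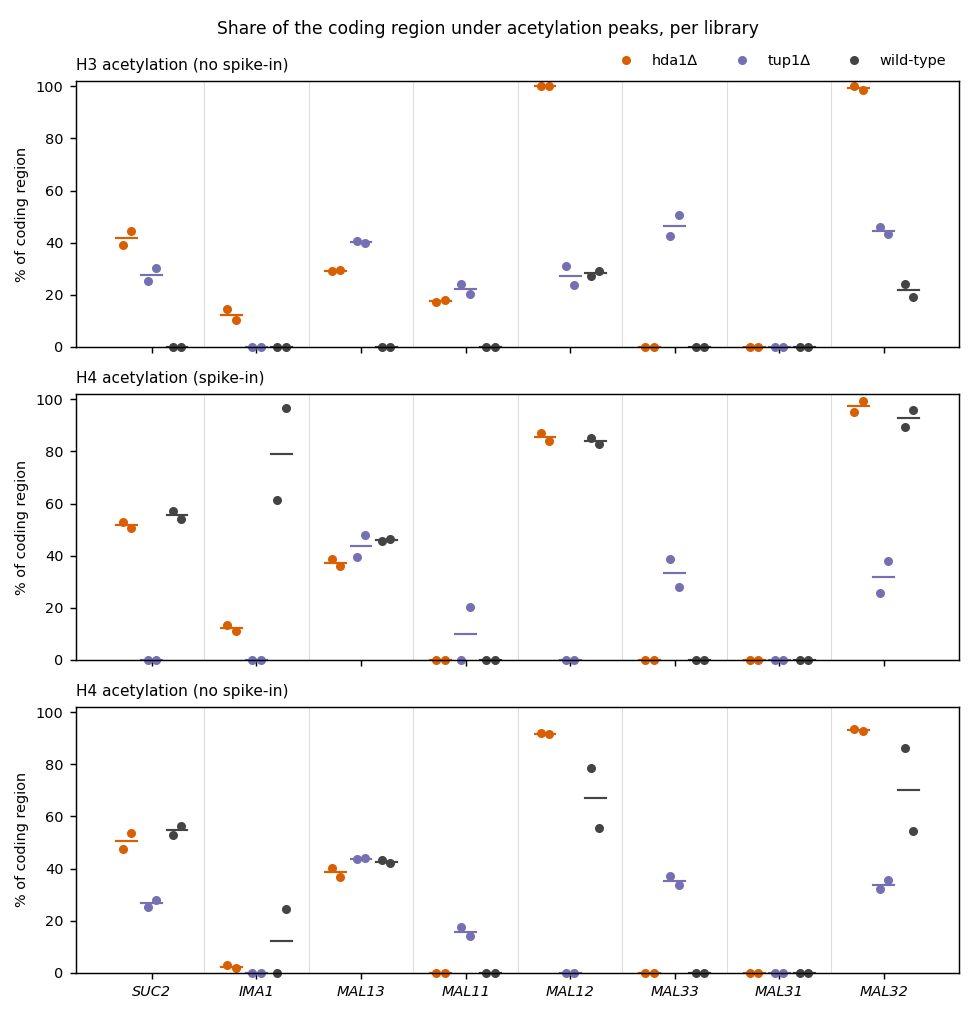
Share of each gene's coding region under peaks (percent), with a point for each library and a line at the mean of the 2 libraries, for hda1∆, tup1∆ and wild-type cells from left to right. H3ac points of wild-type cells lie at 0 except at MAL12 and MAL32, and H4ac points of tup1∆ cells lie at 0 at MAL12 in both sets.

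Upstream, 5 of 8 windows gained H3ac in hda1∆ cells (MAL11, MAL12, MAL13, MAL33 and IMA1), where 10.5% of all genes did. In tup1∆ cells 7 of 8 gained, all but SUC2, where 12.2% of all genes did. A loss of upstream H3ac could not be called at any of the 8 genes, since their windows were at 0% in both wild-type libraries. The shares of all genes with such a loss, 5.72% in hda1∆ and 7.22% in tup1∆ cells, are therefore no measure for them. The median change was 46.4 points in hda1∆ and 42.8 points in tup1∆ cells, against 0 over all genes in each comparison. Because windows overlap, the gains trace back to 3 intervals between divergent starts in hda1∆ cells and 4 in tup1∆ cells. The windows of MAL11 and MAL12 also reached 215 bp into each other's coding region, and that of MAL31 reached 125 bp into MAL32. Part of the coverage of these windows thus repeats coding coverage. H3ac peaks covered 51.4% and 50.2% of the PHO89-MAL33 interval in hda1∆ cells and 69.3% and 67.5% in tup1∆ cells, against 0% in both wild-type libraries. In the IMA1-MAL13 interval the shares were 54.1% and 54.3% in hda1∆ cells and 45.4% and 42.5% in tup1∆ cells, against 0% in wild-type cells. The MAL11-MAL12 interval had 39.7% and 38.9% in hda1∆ cells and 55.5% and 48.0% in tup1∆ cells, against 0% in wild-type cells. The MAL31-MAL32 interval, its counterpart on chromosome II, had 5.83% and 0% in hda1∆ cells and 16.3% and 20.0% in tup1∆ cells, against 0% in wild-type cells. Of the 94 bp between YBR298C-A and MAL32, H3ac peaks covered 54.3% and 0% in hda1∆ cells and 100% in both tup1∆ libraries, against 0% in wild-type cells. These interval values were chosen after the peak positions had been seen.

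**Figure D2:**
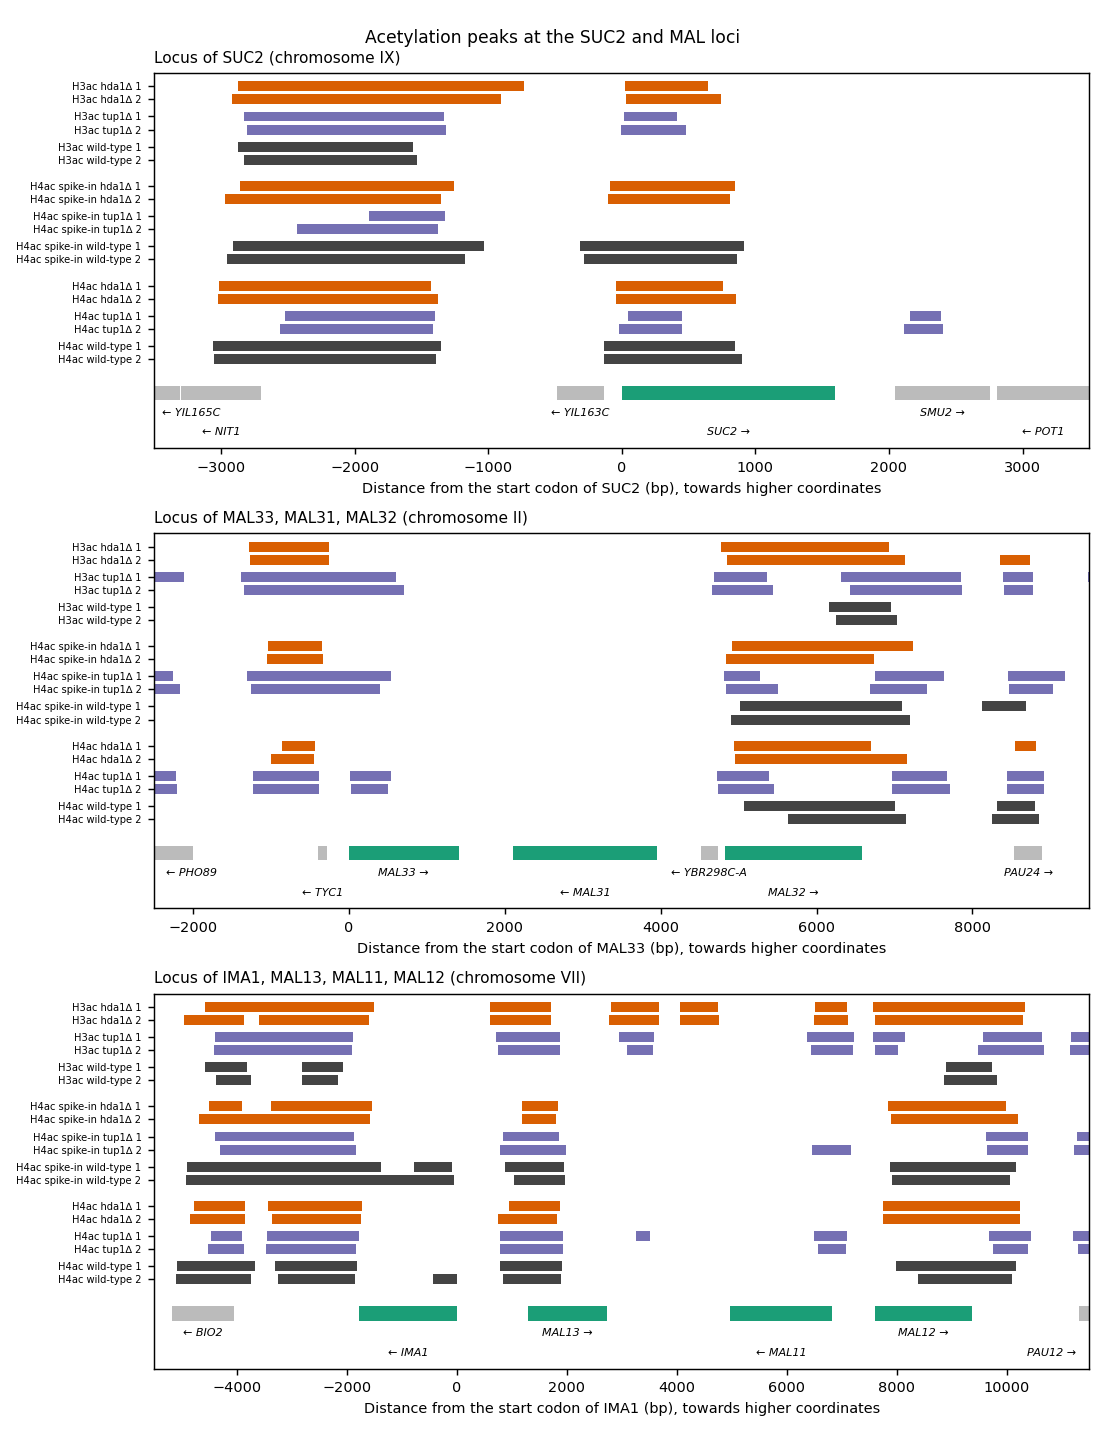
Called peaks (bars) in the 18 acetylation libraries around SUC2, the MAL33-MAL31-MAL32 locus and the IMA1-MAL13-MAL11-MAL12 locus, with hda1∆ above tup1∆ and wild-type in each set, and coding regions below with arrows for their direction (green, the 8 genes; grey, other genes). The horizontal axis is the distance in bp from the start codon of SUC2, MAL33 or IMA1, and the MAL31 coding region is free of peaks in all 18 libraries.

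H4 acetylation gave another picture. In the spike-in set no coding region gained H4ac in hda1∆ cells, where 4.27% of all genes did, and 1 lost it (IMA1), where 10.9% of all genes did. In tup1∆ cells 4 of 8 coding regions lost H4ac (SUC2, MAL12, MAL32 and IMA1), where 5.48% of all genes did, and 1 gained it (MAL33), where 7.66% did. The median change over the 8 genes in tup1∆ cells was −29.0 points with spike-in and −6.07 points without, against 0 over all genes in each set. In the set without spike-in, 3 coding regions lost H4ac in tup1∆ cells (SUC2, MAL12 and MAL32), where 5.33% of all genes did, and 2 gained it (MAL11 and MAL33), where 8.23% did. Among the 8 genes only MAL12 gained coding H4ac in hda1∆ cells in that set, where 4.42% of all genes did. Thus SUC2, MAL12 and MAL32 lost coding H4ac coverage in tup1∆ cells in each set, and MAL33 gained it in each.

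**Figure D3:**
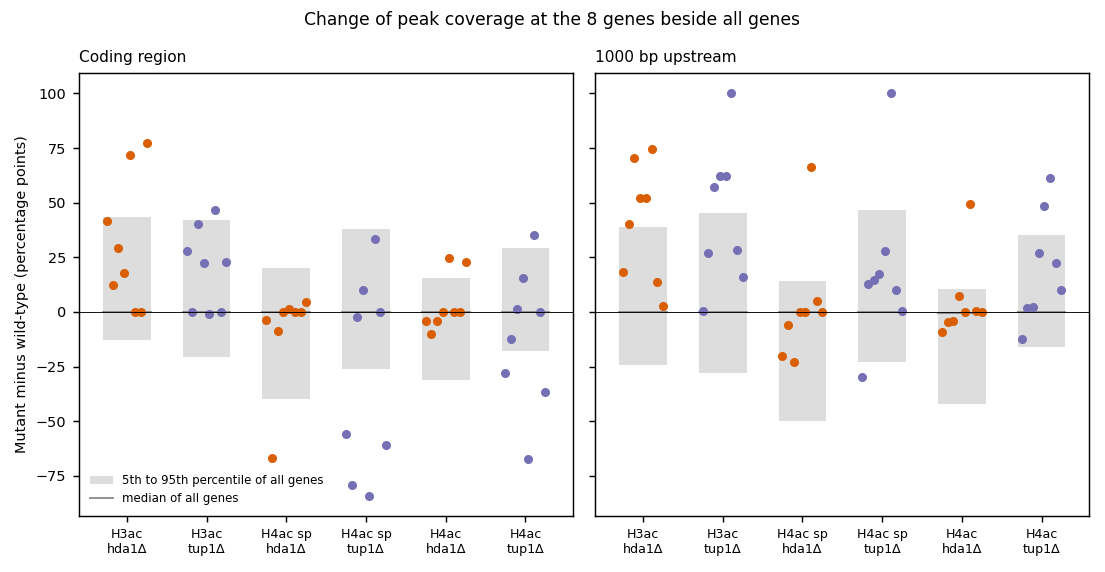
Change in coverage (mutant mean minus wild-type mean, percentage points) of the 8 genes (points, in the order SUC2, IMA1, MAL13, MAL11, MAL12, MAL33, MAL31, MAL32) in the coding region and the 1000 bp upstream, for H3ac, H4ac with spike-in (sp) and H4ac without. Grey boxes span the 5th to the 95th percentile of all genes, and the line marks their median; the H4ac coding values of MAL12 in tup1∆ cells lie far below the boxes.

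SUC2 encodes invertase and is the classic target of Mig1, Tup1-Cyc8 and the SWI/SNF remodeller. Its H3ac coding coverage was 39.0% and 44.6% in hda1∆ cells and 25.2% and 30.3% in tup1∆ cells, against 0% in both wild-type libraries. The peaks sat over the 5′ part of the gene, at chrIX:37410-38033 and chrIX:37415-38127 in hda1∆ cells and at chrIX:37399-37801 and chrIX:37377-37869 in tup1∆ cells. They were modest peaks, with fold enrichments of 1.61 and 1.62 in hda1∆ cells and 1.69 and 1.84 in tup1∆ cells, between percentiles 36.6 and 54.2 of all peaks of their own library. The region was not free of acetylation in wild-type cells, since H4ac covered it there. H4ac coverage with spike-in was 53.1% and 50.8% in hda1∆ cells and 0% in both tup1∆ libraries, against 57.2% and 54.2% in wild-type cells. Without spike-in it was 47.6% and 53.7% in hda1∆ cells and 25.1% and 28.1% in tup1∆ cells, against 52.9% and 56.3% in wild-type cells. The tup1∆ libraries lay below both wild-type libraries in each set, while the hda1∆ libraries lay within 10 points of at least 1 of them.

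At the SUC2 promoter H4ac coverage was lower in the mutants. Wild-type H4ac peaks reached across the 132 bp between YIL163C and SUC2, covering 100% of them in all 4 wild-type libraries. In hda1∆ cells the shares of this interval under H4ac peaks were 66.7% and 78.0% with spike-in and 31.1% and 34.1% without. In tup1∆ cells they were 0% in both spike-in libraries and 0% and 14.4% without spike-in. Over the whole 1000 bp window, H4ac coverage with spike-in was 8.80% and 10.3% in hda1∆ cells and 0% in both tup1∆ libraries, against 31.3% and 28.0% in wild-type cells, a loss in each mutant. The shares of all genes with such a loss upstream were 13.4% in hda1∆ and 4.74% in tup1∆ cells. Without spike-in the window was at 4.10% and 4.50% in hda1∆ cells, not called, and at 0% and 1.90% in tup1∆ cells, called as a loss with 4.54% of all genes, against 13.5% in both wild-type libraries. The H3ac coverage of this window in hda1∆ cells, 26.9% and 9.60%, came from a peak whose summit lay 2267 and 1916 bp before the start codon, on the far side of YIL163C.

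MAL12 and MAL32 encode maltase, the α-glucosidase that splits maltose inside the cell. MAL12 H3ac coding coverage was 100% in both hda1∆ libraries and 31.1% and 23.6% in tup1∆ cells, against 27.2% and 29.3% in wild-type cells. In hda1∆ cells peaks at chrVII:1076565-1079313 and chrVII:1076589-1079275 spanned the whole gene. In wild-type cells the peaks at chrVII:1077876-1078719 and chrVII:1077840-1078804 began 1277 and 1241 bp into the gene and ran past its stop codon. In tup1∆ cells the MAL12 coverage was close to that of wild-type cells in amount but not in place: the peaks began 37 bp before and 2 bp after the start codon and ended 544 and 415 bp into the gene, so the call by amount missed a shift towards the 5′ end. When every H3ac library was reduced to the same covered length, 1 coding region was called as losing H3ac in tup1∆ cells, that of MAL12.

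MAL32 was covered along its whole length in hda1∆ cells, as MAL12 was, but differed from it in tup1∆ cells, where MAL32 was called as gaining H3ac and MAL12 was not. Its H3ac coding coverage was 100% and 98.5% in hda1∆ cells and 46.0% and 43.3% in tup1∆ cells, against 24.3% and 19.3% in wild-type cells. The tup1∆ peaks over its 5′ end reached 537 and 606 bp into the gene, and a second peak in each library covered the stop codon from 1486 and 1602 bp on. The wild-type peaks began 1328 and 1417 bp into the gene. Since the 2 genes are so alike in sequence, their values are not independent of each other.

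H4ac covered most of both maltase genes in wild-type and hda1∆ cells and far less of them in tup1∆ cells. With spike-in, MAL12 coverage was 87.1% and 83.8% in hda1∆ cells and 0% in both tup1∆ libraries, against 85.2% and 82.7% in wild-type cells. MAL32 coverage was 95.2% and 99.5% in hda1∆ cells and 25.6% and 37.8% in tup1∆ cells, against 89.4% and 95.9% in wild-type cells. Where tup1∆ cells kept an H4ac peak on MAL32, it lay at the 5′ end, ending 449 and 673 bp into the gene, whereas the summits in wild-type cells lay 1511 and 1558 bp in. Without spike-in, MAL12 coverage was 92.1% and 91.5% in hda1∆ cells and 0% in both tup1∆ libraries, against 78.5% and 55.7% in wild-type cells. MAL32 coverage in that set was 93.6% and 92.8% in hda1∆ cells and 32.0% and 35.5% in tup1∆ cells, against 86.3% and 54.4% in wild-type cells. The hda1∆ values of MAL32 exceeded the higher wild-type library by less than 10 points, and without wild-type library 1 the number of coding regions gaining H4ac in hda1∆ cells in this set was 2, with MAL32 added.

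MAL11, also known as AGT1, and MAL31 encode maltose transporters. MAL11 gained H3ac over its 5′ end, with 17.2% and 18.0% in hda1∆ cells and 24.3% and 20.5% in tup1∆ cells, against 0% in wild-type cells. The hda1∆ peaks there were among the weakest of their libraries, with fold enrichments of 1.42 and 1.26 at percentiles 12.8 and 0.9 of their library, and the hda1∆ gain at MAL11 was lost when every H3ac library was reduced to the same covered length, as was the upstream gain at MAL12. The tup1∆ peaks at chrVII:1075365-1076212 and chrVII:1075435-1076190 were stronger, with fold enrichments of 2.14 and 2.17 at percentiles 79.0 and 78.9 and summits 112 and 131 bp before the MAL11 start codon, between the divergent starts of MAL11 and MAL12. H4ac in the MAL11 coding region was at 0% in all hda1∆ and wild-type libraries. In tup1∆ cells it was at 0% and 20.1% with spike-in and at 17.6% and 14.0% without. The MAL11-MAL12 interval showed the same split, with H4ac over 35.3% and 33.1% of it in tup1∆ cells without spike-in and over 0% and 44.2% with spike-in, and no H4ac in hda1∆ or wild-type cells in either set. Upstream windows gaining H4ac in tup1∆ cells without spike-in numbered 4 (MAL11, MAL12, MAL31 and MAL33), where 11.6% of all genes gained.

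The H4ac calls at this interval thus depended on tup1∆ library 1 of the spike-in set. Without it, 2 coding regions gained H4ac in tup1∆ cells (MAL11 and MAL33) and 3 upstream windows did (MAL11, MAL12 and MAL33). With all libraries 1 upstream window gained H4ac in the spike-in set (MAL33), where 11.2% of all genes did. Leaving out a wild-type library changed the upstream count through other genes. It was 3 without wild-type library 1 (MAL13, MAL33 and IMA1) and 2 without wild-type library 2 (MAL31 and MAL33). MAL11 and MAL12 were called in neither case.

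MAL31 was the exception among the 8 genes. No peak of H3ac, H4ac or myc touched its coding region in any of the 30 libraries. For each strain and acetylation set, between 56.9% and 76.8% of all coding regions held a peak in both libraries. For Hda1-myc the shares were 15.9% with spike-in and 12.6% without, so absence of myc peaks was common. The upstream window of MAL31 had H3ac coverage of 17.6% and 9.90% in hda1∆ cells and 26.8% and 30.0% in tup1∆ cells, against 0% in wild-type cells. This coverage came from the far end of the window, where the peaks over the 5′ end of MAL32 began, 701 bp or more from the MAL31 start codon. In tup1∆ cells the H4ac coverage of the window was 23.4% and 21.3% without spike-in, called as a gain, and 13.6% and 11.5% with spike-in, not called. The wild-type values were 0% in both libraries without spike-in and 0% and 5.30% with it.

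MAL13 and MAL33 encode MAL activator proteins. The MAL33 locus had no acetylation peak in any wild-type library, neither in the coding region nor in the 1000 bp upstream. H3ac upstream coverage was 75.0% and 73.8% in hda1∆ cells and 100% in both tup1∆ libraries. The H3ac peaks at chrII:799137-801120 and chrII:799173-801234 in tup1∆ cells, with fold enrichments of 2.80 and 2.84, stood at percentiles 98.2 and 98.5 of their libraries. They ran from 1386 and 1350 bp before the start codon to 597 and 711 bp into the gene, and MAL33 H3ac coding coverage was 42.5% and 50.6% in tup1∆ cells. In hda1∆ cells the peaks at chrII:799245-800272 and chrII:799258-800260 stopped 251 and 263 bp short of the start codon, and H3ac coding coverage was 0% in both libraries.

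Upstream of MAL33, H4ac coverage changed in the same direction as H3ac in each mutant. Upstream H4ac coverage with spike-in was 65.9% and 66.3% in hda1∆ cells and 100% in both tup1∆ libraries, against 0% in wild-type cells. Only 2.75% of all genes gained upstream H4ac in hda1∆ cells in that set. Without spike-in it was 43.4% and 55.7% in hda1∆ cells, where 2.84% of all genes gained, and 61.3% and 61.1% in tup1∆ cells, against 0% in wild-type cells. H4ac coding coverage was 0% in all hda1∆ and wild-type libraries. In tup1∆ cells it was 38.5% and 27.9% with spike-in and 37.2% and 33.5% without. The coding gain without spike-in was lost when libraries were reduced to the same covered length.

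Much of the new MAL33 peak lay beyond TYC1, in the stretch that MAL33 shares with PHO89. The summits were 515 and 627 bp before the MAL33 start codon for H3ac in hda1∆ cells and 910 and 998 bp before it in tup1∆ cells. The 1000 bp upstream of PHO89 had H3ac coverage of 27.8% and 26.5% in hda1∆ cells and 38.6% and 35.0% in tup1∆ cells, against 0% in wild-type cells. When the MAL33 window ended at TYC1, 280 bp before the start codon, the upstream gains of H3ac and of H4ac in each set were no longer called in hda1∆ cells. In tup1∆ cells the H4ac gain without spike-in was lost as well, while H3ac and H4ac with spike-in covered 100% of the shortened window in both libraries. Which of the 3 genes the peak belongs to cannot be told from these lists.

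The paralogue MAL13 differed from MAL33 in wild-type cells, since H4ac already covered its start there. H3ac coding coverage of MAL13 was 29.0% and 29.3% in hda1∆ cells and 40.6% and 40.0% in tup1∆ cells, against 0% in wild-type cells. H4ac coding coverage with spike-in was 38.5% and 35.9% in hda1∆ cells and 39.6% and 47.9% in tup1∆ cells, against 45.6% and 46.3% in wild-type cells. Without spike-in it was 40.3% and 36.8% in hda1∆ cells and 43.8% and 43.9% in tup1∆ cells, against 43.2% and 42.1% in wild-type cells. In each of the 4 H3ac libraries of the mutants and each of the 12 H4ac libraries a peak straddled the MAL13 start codon, with H3ac summits between 13 bp before and 81 bp after the start codon in the mutants. Upstream H3ac coverage was 70.4% and 70.6% in hda1∆ cells and 59.1% and 55.3% in tup1∆ cells, against 0% in wild-type cells. Upstream H4ac coverage with spike-in was 10.7% and 12.3% in hda1∆ cells, called as a loss, and 46.8% and 51.2% in tup1∆ cells, against 42.4% and 26.1% in wild-type cells. Without spike-in it was 34.6% and 54.6% in hda1∆ cells and 51.1% in both tup1∆ libraries, against 50.8% and 46.6% in wild-type cells, with no call.

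**Figure D4:**
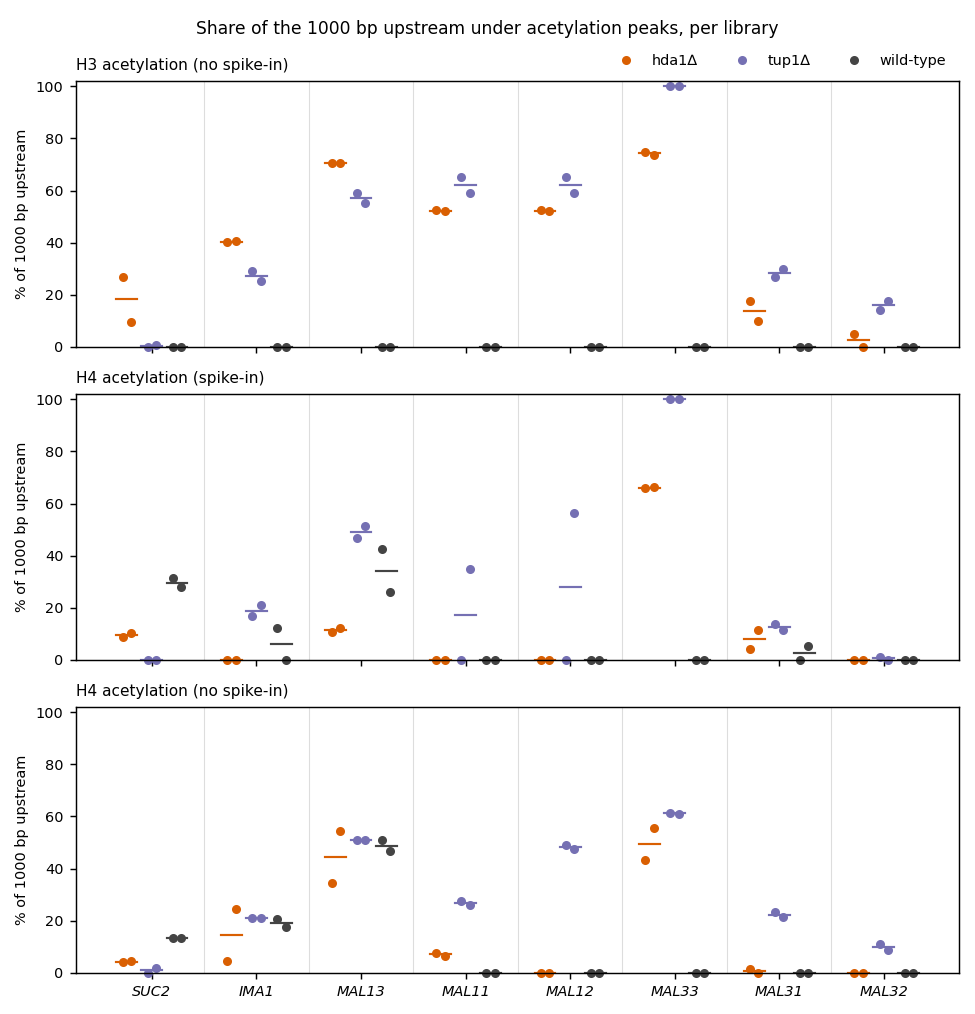
Share of the 1000 bp upstream of each start codon under peaks (percent), with a point for each library and a line at the mean of the 2 libraries, for hda1∆, tup1∆ and wild-type cells from left to right. H3ac points of wild-type cells are at 0 at all 8 genes, and at MAL33 the tup1∆ points are at 100 for H3ac and for H4ac with spike-in.

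IMA1 encodes isomaltase, which splits isomaltose and related sugars. H3ac coding coverage of IMA1 was 14.6% and 10.2% in hda1∆ cells and 0% in both tup1∆ libraries and both wild-type libraries. The hda1∆ coverage came from the edge of a peak lying beyond the stop codon towards the biotin synthase gene BIO2, at chrVII:1064418-1067479 in library 1 and chrVII:1065405-1067401 in library 2. This peak was among the strongest of its libraries, at percentile 99.5 in each, with summits 2640 and 2648 bp from the IMA1 start codon in a gene of 1770 bp. Upstream, H3ac coverage of 40.3% and 40.5% in hda1∆ cells and 29.0% and 25.2% in tup1∆ cells, against 0% in wild-type cells, came from the peak at the MAL13 start. H4ac coverage of this window was 0% in hda1∆ cells and 16.7% and 21.1% in tup1∆ cells with spike-in, against 12.3% and 0% in wild-type cells, with no call. Neither H3ac gain therefore reflects a peak centred on IMA1.

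The wild-type libraries differed widely at IMA1. H4ac coding coverage with spike-in was 13.3% and 11.1% in hda1∆ cells and 0% in both tup1∆ libraries, against 61.5% and 96.8% in wild-type cells. Without spike-in it was 2.94% and 1.64% in hda1∆ cells and 0% in both tup1∆ libraries, against 0% and 24.3% in wild-type cells. The wild-type peaks behind these values were weak where they lay inside the gene, with a fold enrichment of 1.40 at percentile 2.97 in library 1 with spike-in. In wild-type library 2 with spike-in, 1 peak joined the gene to the acetylated region beyond its stop codon. The loss in hda1∆ cells with spike-in was gone when peaks were required to have a −log10 q of at least 5 or when libraries were reduced to the same covered length.

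No anti-myc peak touched any of the 8 coding regions or upstream windows in any of the 12 myc libraries. With spike-in, the share of all genes bound over at least 50% of the coding region in both libraries was 0.467% in Hda1-myc ∆Arb2 cells, 8.53% in Hda1-myc cells and 0.0333% in untagged cells. Without spike-in the shares were 2.33% in Hda1-myc ∆Arb2, 7.15% in Hda1-myc and 0.25% in untagged cells. By the margin rule, Hda1-myc coverage exceeded that of untagged cells at 12.5% of all coding regions and 17.1% of all upstream windows with spike-in, and at 10% and 15.1% without, and at none of the 8 genes. Of the Hda1-myc ∆Arb2 libraries, the spike-in pair held 628 and 59 peaks and of the untagged libraries that pair held 235 and 10, so libraries of 1 strain stood apart there, but the members were at 0% in all of them. A region without a called peak is a region below the calling threshold, and occupancy below it was not measured here.

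Related genes outside the 3 loci were read by the same rule. The list holds the isomaltase genes IMA2 to IMA5, the α-glucoside transporter genes MPH2 and MPH3, and YPR196W and ZNF1, which encode zinc-cluster proteins. In hda1∆ cells 8 of 8 coding regions gained H3ac, with a median change of 49.3 points, where 11.3% of all genes gained, and in tup1∆ cells 5 of 8 did (IMA5, MPH2, MPH3, YPR196W and ZNF1), where 10.3% of all genes gained. H3ac coverage of IMA3 was 95% and 100% in hda1∆ cells and 0% in tup1∆ cells, against 0% in wild-type cells, and IMA4 was at 100% and 98.4% in hda1∆ cells and 0% in tup1∆ cells, against 0% in wild-type cells. IMA3 and IMA4 are near-identical copies, so they count as little more than 1 observation. With spike-in, 4 of 8 lost H4ac in tup1∆ cells (IMA2, IMA3, IMA4 and YPR196W), where 5.48% of all genes did, and 1 gained it (IMA5), where 7.66% did. Without spike-in 3 lost it in tup1∆ cells (IMA2, IMA3 and IMA4), where 5.33% of all genes did, and 2 gained it (IMA5 and ZNF1), where 8.23% did. In hda1∆ cells none of the 8 gained H4ac with spike-in, and 3 did without (IMA2, IMA4 and YPR196W), where 4.27% and 4.42% of all genes did. With spike-in, H4ac coverage of IMA2 was 100% in both hda1∆ libraries and 0% in both tup1∆ libraries, against 93.3% and 93.9% in wild-type cells, as at MAL12.

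A list of 15 regulators of glucose repression served as the rest of the pathway. In hda1∆ cells 3 of 15 coding regions gained H3ac (MIG3, NRG2 and SIP2), and in tup1∆ cells 2 of the 14 left without TUP1 gained it (MIG3 and NRG2) and 1 lost it (NRG1). The gains are to be read against 11.3% of all genes in hda1∆ and 10.3% in tup1∆ cells, and the loss against 4.97%. MIG3, which encodes a Mig1-like repressor, had H3ac coverage of 100% in both hda1∆ libraries and 67.8% and 66.3% in tup1∆ cells, against 28.0% and 23.8% in wild-type cells. With spike-in, however, MIG1, MIG3 and NRG2 lost coding H4ac in each mutant, 3 of 15 in hda1∆ and 3 of 14 in tup1∆ cells. The shares of all genes were 10.9% and 5.48%. Without spike-in 0 of 15 lost it in hda1∆ cells and 1 of 14 (NRG2) in tup1∆ cells, where 12% and 5.33% of all genes did. The list had a median H3ac change of 0 points in each mutant, the same as all genes. Hda1-myc coverage of the coding region exceeded that of untagged cells at 2 of 15 in each set, NRG1 and HXK2 with spike-in and MIG2 and HXK2 without, where 12.5% and 10% of all genes did. HXK2, which encodes a hexokinase, was covered over 100% of its coding region in all 4 Hda1-myc libraries, against 42.8% and 0% in untagged cells with spike-in and 0% in both without. Of the 5 SWI/SNF subunit genes, none gained or lost coding H3ac coverage in either mutant.

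For each gene, the most similar gene elsewhere was sought over the 36 coverage values of the coding region and the upstream window in the 18 acetylation libraries, among genes on other chromosomes or more than 5000 bp away. The mean absolute difference was 2.06 points between MAL31 and TUB4, 6.26 points between MAL11 and IDH2, 7.41 points between MAL32 and USV1, and 9.02 points between IMA1 and RTS3. It was 10.4 points between MAL13 and ECM38, 10.8 points between SUC2 and DIT1, 13.4 points between MAL33 and PDR18, and 13.5 points between MAL12 and YMR206W. The median over the genes searched ran from 35.3 points (MAL33) to 43.6 points (MAL32). Each named gene is the best of all genes searched, unlike the fixed pairs below. All coding values of MAL31 were 0%, so its small distances partly reflect a shared absence of peaks. Within the group, the paralogues MAL12 and MAL32 differed by 15.5 points, MAL11 and MAL31 by 9.89 points, and MAL13 and MAL33 by 26.1 points. The activator genes were thus the paralogous pair with the least similar coverage, and MAL33 was farther from MAL32 (51.0 points) than from any other member.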

How the data were processed

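The 8 members and all gene lists were chosen with earlier results of these data known. Reads were aligned by the authors with Bowtie2 2.2.5, filtered with Picard 2.6, and peaks were called per library with MACS2 2.1.0 at a stated q of 0.05. The largest q of a deposited peak was 0.0474 in the spike-in lists but 0.00987 in the lists without spike-in, so the sets differ in the threshold they reach. The methods name total H3 as the control of the acetylation ratios, and the control of each peak call is not given in the sources used here. The deposited narrowPeak lists give a position, a score, a fold enrichment as a ratio, and −log10 p and −log10 q values. The deposited score and −log10 p were not used, and fold enrichment was ranked within a library only. Of 54 samples, 30 have a peak list; 24 input and total H3 samples were not analysed here. The methods and the submitters' processing notes name different builds of the yeast genome, so peak positions are printed as listed, counted from 1, and distances to genes carry that doubt.

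Coverage was computed with Python 3.11.15, numpy 2.4.6 and pandas 2.3.3, and tested on simulated peaks. Upstream windows were complete for 5994 genes. The study describes independent experiments, but nothing ties a replicate number to a culture. All 8 genes are named, beside the lists. Alternatives were another margin, threshold, window and table position, equal covered length, each library left out, MAL12 and MAL32 left out, and a replicate block.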

Additional observations from a re-analysis of the deposited data

How the results depend on the processing

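Peak lists without read counts limit these results to presence and extent of peaks, and 2 libraries per strain allow no p below 0.33. Most counts of members kept within 1.5 times of their value under each alternative, and no change at a called gene reversed its direction. With a 400 bp window, upstream gains of H3ac fell to 3 members in hda1∆ and 4 in tup1∆ cells, and upstream gains of H4ac without spike-in to 0 in hda1∆ and 2 in tup1∆ cells. In that window SUC2 was called as losing H4ac in hda1∆ cells without spike-in, at 10.25% and 11.25% against 33.75% in both wild-type libraries. With a margin of 25 points, coding gains were 3 for H3ac in tup1∆ cells and, for H4ac without spike-in, 0 in hda1∆ and 1 in tup1∆ cells. At that margin the upstream H4ac losses of SUC2 and MAL13 in hda1∆ cells with spike-in were no longer called (0 left of 2), nor was that of SUC2 in tup1∆ cells without spike-in (0 left of 1), and 1 of the 3 coding H4ac losses in tup1∆ cells without spike-in was left, that of MAL12. With the upstream window ended at the next coding region, upstream gains of H4ac in hda1∆ cells were 0 in each set. The SUC2 loss of H4ac in hda1∆ cells without spike-in was called there too, at 31.1% and 34.1% against 100% in both wild-type libraries. With equal covered length, H4ac gains in tup1∆ cells without spike-in were 0 in coding regions and 2 upstream. Without MAL12 and MAL32, coding gains of H4ac in hda1∆ cells without spike-in were 0, since MAL12 was the gene called. Of the coding H4ac losses in tup1∆ cells, those of SUC2 and IMA1 then remained with spike-in and that of SUC2 alone without. These losses thus rest in large part on the 2 nearly identical maltase genes. With the gene table moved by 100 bp, H4ac counts without spike-in were 2 upstream gains in hda1∆ cells (table moved up) and 1 coding gain in tup1∆ cells (moved down). The causes were not tested unless named.

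Leaving out each library in turn gave 6 to 6 coding and 5 to 7 upstream gains of H3ac in hda1∆ cells, and 5 to 5 and 7 to 7 in tup1∆ cells. For H4ac with spike-in the ranges were 0 to 0 and 1 to 1 in hda1∆ cells and 1 to 2 and 1 to 3 in tup1∆ cells. Without spike-in they were 1 to 2 and 1 to 1 in hda1∆ cells and 2 to 2 and 4 to 5 in tup1∆ cells.

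Libraries with the same replicate number did not deviate together, with correlations of their deviations over genes between −0.0255 and 0.0793 in the 6 comparisons. A replicate block, in which same-numbered libraries were compared, left each count of members as it was, for example 6 coding gains of H3ac in hda1∆ cells.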

Other observations

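Of 13 neighbouring genes, 5 gained H3ac in the coding region in tup1∆ cells (PAU12, COS6, TYC1, PAU24 and YBR298C-A), where 10.3% of all genes did, and 2 did in hda1∆ cells (COS6 and TYC1), where 11.3% did. PAU24, which encodes a cell wall mannoprotein and lies beyond MAL32, had H3ac coverage of 68.6% and 66.4% in tup1∆ cells, against 0% in both wild-type libraries. In hda1∆ cells PAU24 was at 0% and 55.1%. H4ac coverage of PAU24 with spike-in was 100% in both tup1∆ libraries, against 41.3% and 0% in wild-type cells.

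Of the 8 related genes listed above, 2 (IMA2 and IMA4) had more upstream Hda1-myc coverage than untagged cells with spike-in, where 17.1% of all genes did. Without spike-in 0 of 8 did, where 15.1% of all genes did. In the spike-in set the 1000 bp upstream of IMA2 had Hda1-myc coverage of 45.9% and 42.4%, and that of IMA4 45.3% and 38.2%, against 0% in untagged and ∆Arb2 cells. In the set without spike-in the Hda1-myc coverage was 0% and 27.9% upstream of IMA2 and 0% and 32.5% upstream of IMA4, so these peaks were not called in each library there.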
